A study of Homo sapiens with 27 samples.

Results

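The comparison described here set 2 missense mutants of ARID1A against each other in 1 human cell line: V2084D, with aspartate in place of valine, and G2087E, with glutamate in place of glycine, each at the residue its name gives. The libraries were found by their labels, 3 for each mutant, which made 6 of the 27 samples of the study. Genes entered when they had at least 10 counts in at least 3 of those 6 libraries, which left 20888 of the 67130 genes in the deposited table. The cells were 293T, an embryonic kidney line that carries the SV40 large T antigen and that the labels call kidney epithelial. The line was taken from the title, source and cell line fields, while the treatment text attached to these samples speaks of Huh7, another line. In both groups ARID1A had been knocked out and a Flag-tagged mutant was then stably expressed from a lentivirus. Knockout cells with no ARID1A added back (KO) and knockout cells given wild-type ARID1A (WT), 3 libraries each, served as background. The labels do not say whether the knockout line was 1 clone, whether the replicates were separate cultures, or which promoter drove the lentivirus. The p-values therefore measure the spread between these libraries, which may be technical.

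ARID1A is the largest subunit of canonical BAF (SWI/SNF), a complex that moves nucleosomes with the energy of ATP and opens enhancers. Its C-terminal part holds the BAF250_C region, which helps it join the rest of the complex, and ARID1A is among the chromatin genes most often mutated in cancer. Proteins that fold badly are bound by HSP70 chaperones, whose genes are switched on by the transcription factor HSF1. STUB1, also called CHIP, is a ubiquitin ligase that marks the clients of HSP70 and HSP90 for the proteasome.

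The mutated residues lie 3 codons apart in exon 20 of 20 of ARID1A (ENSG00000117713, chr1:26693236-26782110, plus strand, GRCh38, GENCODE 29). The codon changed in V2084D is GTC at chr1:26780148-26780150 and that changed in G2087E is GGA at chr1:26780157-26780159, both in coding sequence of 2285 codons. The unmutated reference around them is shown because it places the residues that separate the groups, with their codons in capitals. It covers codons 2076 to 2096 at chr1:26780124-26780186, 63 bases on the coding strand.
ARID1A codons 2076 to 2096: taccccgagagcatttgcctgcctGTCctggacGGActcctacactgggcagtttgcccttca
The deposited table holds counts per gene, so the mutant bases themselves could not be read from it.

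ARID1A was measured first, as a check of the labels. Levels are CPM, counts per 1000000 after TMM scaling. The V2084D libraries held 51966, 42694 and 114119 CPM in replicates 1 to 3, and the G2087E libraries held 51646, 43620 and 84190 CPM. Replicates 1 and 2 of the mutants were thus at close levels, replicate 3 was the highest in each group, and the groups overlapped. The KO libraries held 116 to 196 CPM, while the WT libraries held 5704, 9332 and 62586 CPM, so that only the third WT library came within the range of the mutants. The log2 difference, here and below V2084D minus G2087E, was 0.22 (SE 0.327, n = 3 libraries per group, 95% interval -0.50 to 0.94, edgeR quasi-likelihood test, adjusted p = 1.0). It was -0.34 without V2084D replicate 3, so its direction rested on that library. ARID1A reads made up 4.28% to 10.6% of all counts in the 6 libraries against 0.013% to 0.021% in KO. In bulk RNA, a larger share of expressing cells and more ARID1A RNA per cell cannot be told apart.

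**Figure D1:**
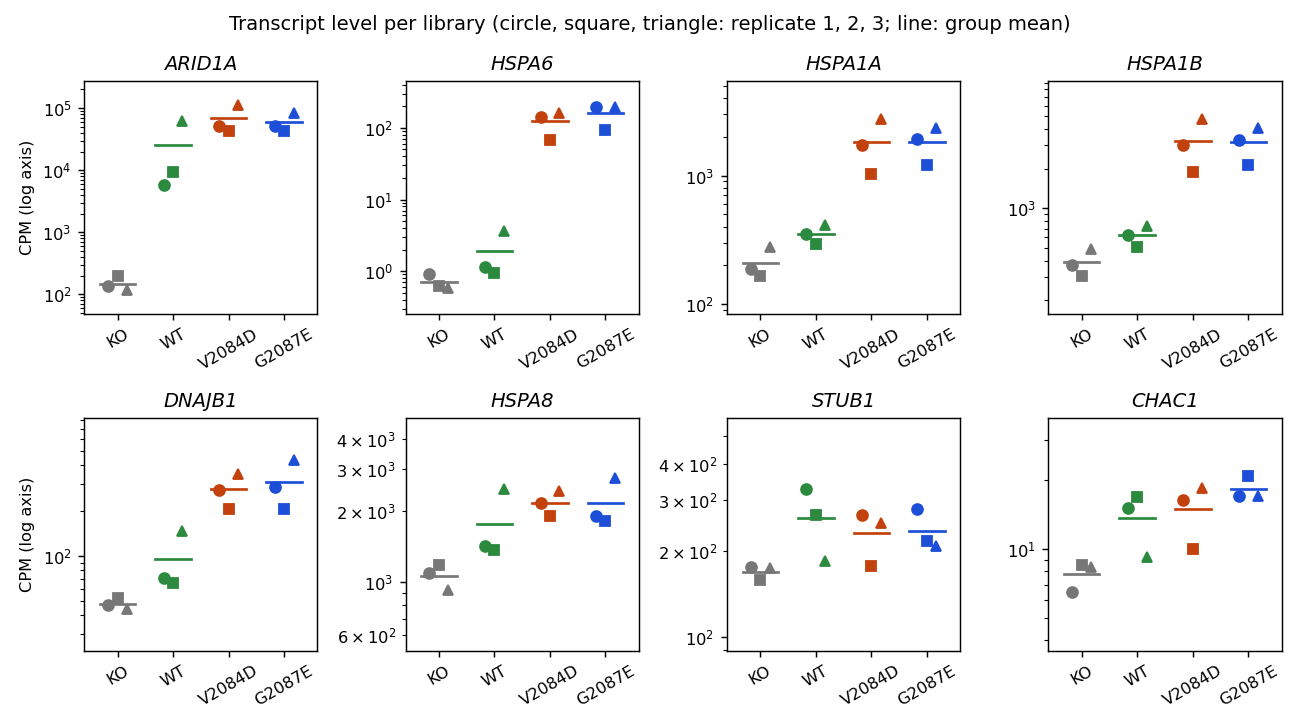
Levels of ARID1A, STUB1 and heat shock genes in each library (points, TMM-scaled CPM on a log axis; circle, square and triangle for replicates 1, 2 and 3) in KO, WT, V2084D and G2087E, with a line at the group mean. The panels also show CHAC1, a glutathione-degrading enzyme. V2084D and G2087E overlap in every panel, and HSPA6 lies at 68.5 to 198 CPM in the mutants against 0.576 to 3.62 CPM in KO and WT.

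Total counts ran from 36432321 to 51527529 over the 6 libraries, and transcripts of mitochondrial DNA took 3.52% to 4.57% of them. Of 21 marker genes of the 293T line and kidney progenitors, 18 reached 1 CPM, with a summed level of 1501 to 1573 CPM in V2084D and 1387 to 1696 CPM in G2087E. Liver markers summed to 80.1 to 95.1 and 85.8 to 94.3 CPM, with AFP, TTR and FGA at 0 counts in all 6 libraries, as were the blood markers CD3E and MS4A1, the fibroblast marker THY1 and the squamous markers KRT14 and TP63. Reads on the ribosomal RNA copies of chromosome 21 made up 0.150% of the counts of V2084D replicate 3 and 0.019% to 0.039% in each of the other 5. No pair of libraries within a group agreed within sampling noise (chi-square per degree of freedom 27.5 to 163), so none was treated as 1 library deposited again. That does not show that they came from separate cultures.

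Over all genes, libraries of different mutants stood about as far apart as libraries of the same mutant. The measure was the median absolute difference of log2 CPM over the genes tested. It was 0.334 on average within V2084D (0.256 to 0.411, 3 pairs), 0.283 within G2087E (0.245 to 0.322, 3 pairs), 0.227 between mutants in libraries of equal replicate number (0.170 to 0.264, 3 pairs) and 0.292 between mutants in libraries of unequal number (0.204 to 0.401, 6 pairs). The closest libraries in the set were a V2084D and a G2087E library of equal number, and the farthest apart were 2 V2084D libraries. Rank correlations over genes ran from 0.976 to 0.989. These pairs share libraries, so the distances are given as a description.

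**Figure D2:**
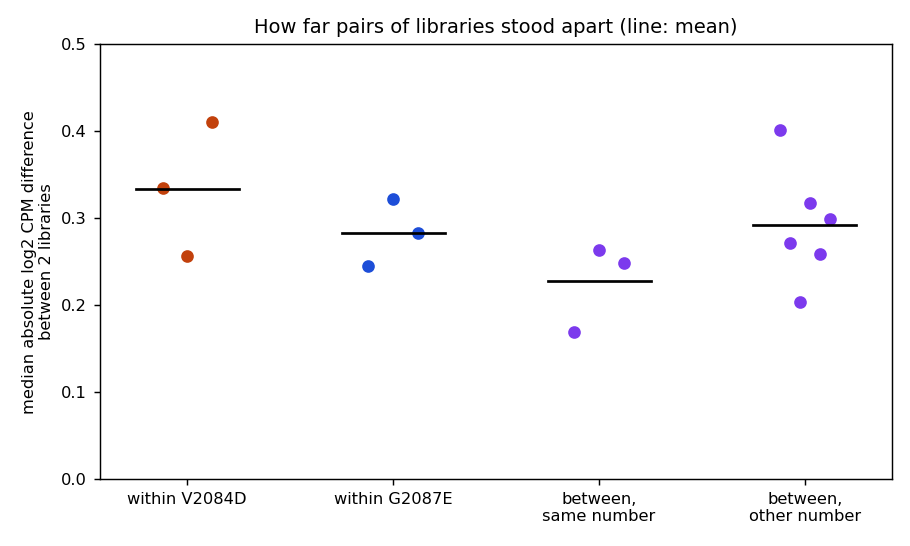
Median absolute log2 difference over the genes tested for each pair of the 6 libraries (points, with a line at the mean), sorted by whether the pair is within V2084D, within G2087E, or between mutants with equal or unequal replicate number. The between-mutant pairs of equal number average 0.227, below the 0.334 within V2084D and the 0.283 within G2087E.

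HSPA6, an HSP70 gene that is nearly silent until cells are stressed, was high in both mutants. It stood at 142, 68.5 and 159 CPM in V2084D and at 198, 92.4 and 195 CPM in G2087E. The KO libraries held 0.576 to 0.906 CPM and the WT libraries 0.942 to 3.62 CPM, all below every mutant library. Between the mutants the difference was -0.39 (SE 0.325, n = 3 per group, 95% interval -1.11 to 0.32, edgeR adjusted p = 1.0), and the groups overlapped. In each of the 3 pairs of equal replicate number the G2087E library was the higher, and with that number as a block the difference was -0.40 (95% interval -0.65 to -0.15, unadjusted p = 0.00585, edgeR adjusted p = 1.0). HSPA6 lies on chr1:161524540-161526910, plus strand.

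The other stress-inducible HSP70 genes, HSPA1A and HSPA1B, showed no direction. HSPA1A held 1715, 1022 and 2773 CPM in V2084D and 1907, 1212 and 2322 CPM in G2087E, against 165 to 279 CPM in KO and 296 to 414 CPM in WT. In replicates 1 and 2 the G2087E library was the higher and in replicate 3 the V2084D library was. The difference was 0.02 (SE 0.313, 95% interval -0.67 to 0.71, edgeR adjusted p = 1.0), and it was -0.049 with the replicate block and -0.41 without V2084D replicate 3. HSPA1B gave 0.02 (SE 0.297). These genes are near-identical copies, and how reads were split between them is not given in the sources used here. In both mutants, replicate 2 had the least HSPA6, HSPA1A, HSPA1B and ARID1A of its group. What part the level of ARID1A had in these values was not tested.

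The HSP40 co-chaperone DNAJB1, which delivers clients to HSP70, held 273, 206 and 353 CPM in V2084D and 287, 206 and 437 CPM in G2087E. KO libraries held 44.3 to 52.0 CPM and WT libraries 70.7, 65.5 and 147 CPM. The mutants overlapped, with a difference of -0.16 (SE 0.261, 95% interval -0.73 to 0.41, edgeR adjusted p = 1.0). For the constitutive HSP70 HSPA8 the difference was 0.00 (SE 0.165), for the cytosolic chaperone HSP90AA1 -0.02 (SE 0.146), for the HSP70 co-chaperone BAG3 -0.01 (SE 0.231) and for HSF1 itself -0.03 (SE 0.213). A list of 32 heat shock genes took in HSF1-induced genes, co-chaperones and the factors HSF1, HSF2 and HSF4. All were tested, 0 were called in either direction, 17 lay above 0, and the median was 0.01 beside 0.00 over all genes. For 29 of the 32 the 95% interval lay within a 2-fold difference.

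Only 3 of the 20888 genes were called at an adjusted p below 0.05 by edgeR, or 0.0144%: 1 was higher in V2084D (0.00479%) and 2 were lower (0.00957%). An unadjusted p below 0.05 was reached by 163 genes (0.78%), 84 higher (0.402%) and 79 lower (0.378%). Without any difference, a calibrated test would on average give a share of 0.05, so 0.78% lay well below that. The fit without the block was thus cautious, and why was not tested. The 3 libraries of V2084D did not overlap those of G2087E for 778 genes (3.72%), 379 higher (1.81%) and 399 lower (1.91%). The middle 50% of log2 differences lay between -0.10 and 0.11, and 90% lay between -0.49 and 0.55. An absolute difference of 1 or more was seen for 560 genes (2.68%), of which 512 had a mean log2 CPM below 0.

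How much room the libraries left for a difference was read from the 95% intervals. The interval lay within a 2-fold difference in either direction for 14638 genes, or 70.1% (Wilson 95% interval 69.5% to 70.7%, which treats genes as independent although they are not). The share was 1.90% of 4940 genes with mean log2 CPM below 0, 61.9% of 3205 genes from 0 to 2 and 96.2% of 3596 genes from 2 to 4. Above 4 it was at least 99.4% in each of the 3 bins. Among protein-coding genes with a mean log2 CPM of at least 1, 97.6% of 12613 had such an interval. For well-expressed genes the data thus bounded the difference, while for most weakly expressed genes a 2-fold difference was not detectable at this replication and depth. The median interval half-width fell from 1.38 in the lowest bin to 0.31 in the highest.

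**Figure D3:**
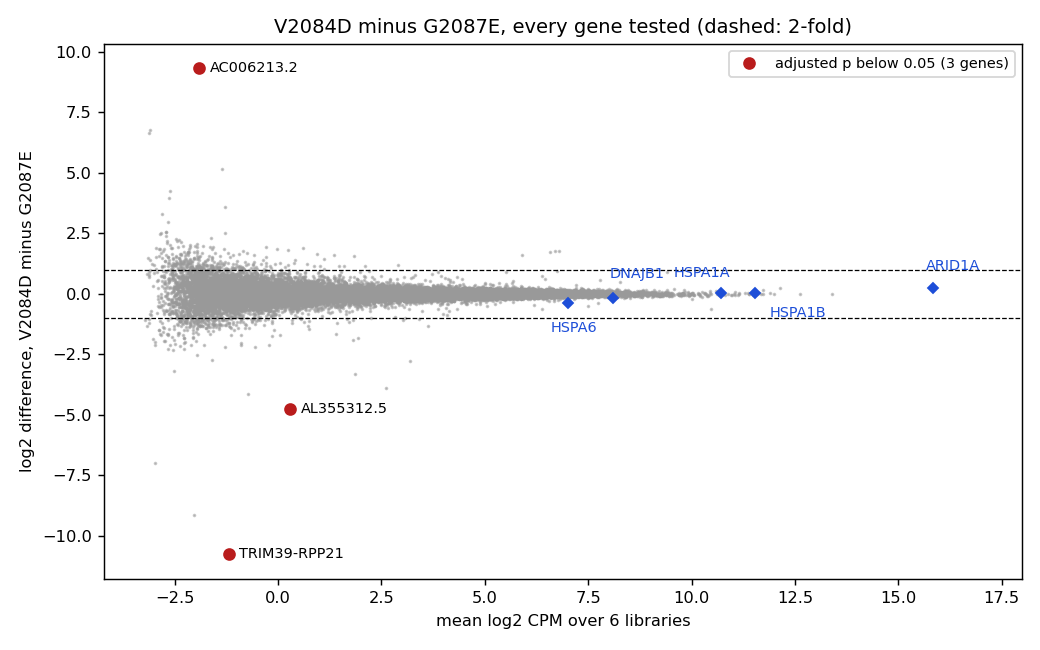
Log2 difference (V2084D minus G2087E) against mean log2 CPM for each of the 20888 genes tested, with dashed lines at a 2-fold difference, the 3 called genes in red and ARID1A and heat shock genes in blue. The scatter narrows with level, and the called genes lie at low mean levels. The fitted values of AC006213.2 and TRIM39-RPP21, which have 0 counts in 1 group, depend on the prior count.

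The called genes were 3 transcripts of low level that overlap better expressed genes on the same strand. They fall outside the rule for naming, which asks for protein-coding genes at a higher level, and were picked with their values in view, as were the neighbours named beside them. TRIM39-RPP21 (ENSG00000248167, chr6:30328907-30346854, plus strand) is a read-through transcript of the ubiquitin ligase gene TRIM39 and the RNase P subunit gene RPP21. It had 0 counts in each V2084D library and 213, 110 and 345 counts in G2087E, at least 228.9-fold lower in V2084D against a floor of 3 counts over the group (edgeR adjusted p = 0.00199). The background libraries were split too, with 0, 0 and 540 counts in KO and 419, 0 and 124 in WT. TRIM39 itself differed by 0.06 (SE 0.166) and RPP21 by 0.12 (SE 0.210), neither called.

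AL355312.5 (ENSG00000285991, chr6:149817937-149896011, minus strand) spans LRP11, a gene for a membrane protein of the LDL receptor-related family. It had 9, 12 and 9 counts in V2084D and 224, 280 and 296 in G2087E, with no overlap between the groups. The difference was -4.78 (SE 0.336, 95% interval -5.52 to -4.04, edgeR adjusted p = 0.000462). In KO it had 4, 3 and 348 counts, in WT 9, 12 and 9. In KO, 1 library therefore held as much as the G2087E libraries. Counts were 2, 171 and 4 in G2087R and 8, 118 and 15 in K2025E. LRP11 gave 0.29 (SE 0.152), with 46.1, 45.2 and 49.0 CPM in V2084D and 42.4, 32.8 and 39.5 CPM in G2087E, and was not called.

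AC006213.2 (ENSG00000267058, chr19:43891804-43901805, minus strand), a long noncoding RNA that overlaps the zinc finger gene ZNF404, was the called gene higher in V2084D. It had 84, 100 and 54 counts there and 0 in each G2087E library, at least 77.2-fold higher against the same floor (edgeR adjusted p = 0.0164). KO held 79, 0 and 0 counts and WT 0 in all 3. AC006213.2 also had 116, 0 and 74 counts in G2087R and 59, 56 and 50 in K2025E, so it was not limited to V2084D. With the replicate number as a block its adjusted p was 0.106, and it was not called without V2084D replicate 1, V2084D replicate 2 or G2087E replicate 3. ZNF404 gave -0.03 (SE 0.253).

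ABHD14A-ACY1 and AC012184.2, not called by edgeR in the fit of the 6 libraries without a block, also overlap better expressed genes. ABHD14A-ACY1 (chr3:51974706-51989183, plus strand), a read-through transcript into ACY1, held 99, 87 and 10 counts in V2084D and 802, 692 and 381 in G2087E (difference -3.33, SE 0.565, edgeR adjusted p = 0.707). With the block it was called, at -3.57 (SE 0.333, edgeR adjusted p = 0.0345). ACY1, an aminoacylase, lay the other way, with 26.8, 17.4 and 19.3 CPM in V2084D and 15.0, 6.78 and 12.1 CPM in G2087E (0.91, SE 0.275, edgeR adjusted p = 1.0). AC012184.2 (chr16:70299194-70372582, plus strand), which spans parts of the RNA helicase genes DDX19B and DDX19A, had 52, 32 and 134 counts in G2087E and 0 in V2084D, KO and WT (at least 74.7-fold lower in V2084D, edgeR adjusted p = 0.0661). It was called by DESeq2 (adjusted p = 5.33e-07) and by edgeR without G2087E replicate 1 (0.0288) or G2087E replicate 2 (0.0183), and its adjusted p reached 1.0 with all 18 libraries in 1 fit. AC012184.2 was likewise picked with its values in view. It also had 0 counts in each G2087R and K2025E library.

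When the counts of overlapping genes on the same strand were added together at these 5 loci, 4 of the sums were near 0. The TRIM39-RPP21 sum differed by -0.03 (SE 0.152), the AL355312.5 sum by 0.08 (SE 0.142), the ABHD14A-ACY1 sum by -0.03 (SE 0.195) and the AC012184.2 sum by -0.02 (SE 0.131). Adding the neighbours also dilutes a transcript that is a small part of its locus. In the group where it was higher, the transcript made up 0.853% of the summed counts for AC012184.2, 8.48% for TRIM39-RPP21, 13.3% for AL355312.5 and 37.0% for ABHD14A-ACY1. The 95% interval of the sum ran from -0.36 to 0.30 for TRIM39-RPP21 and from -0.23 to 0.40 for AL355312.5. The loss of parts that small would fall inside these intervals. For AC012184.2, TRIM39-RPP21 and AL355312.5 a sum near 0 therefore carries little information. The sum of AC006213.2 and ZNF404, of which AC006213.2 made up 36.6%, stayed apart, at 0.62 (SE 0.245, 95% interval 0.09 to 1.16, edgeR unadjusted p = 0.0272, adjusted p = 1.0). With the sums in place of the single genes, edgeR called 0 of 20880 features, and 158 had an unadjusted p below 0.05. The dilution left little room for a call at TRIM39-RPP21 or AL355312.5. The rule by which reads in shared exons were assigned is not given in the sources used here, and its part in these 3 calls was not tested.

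**Figure D4:**
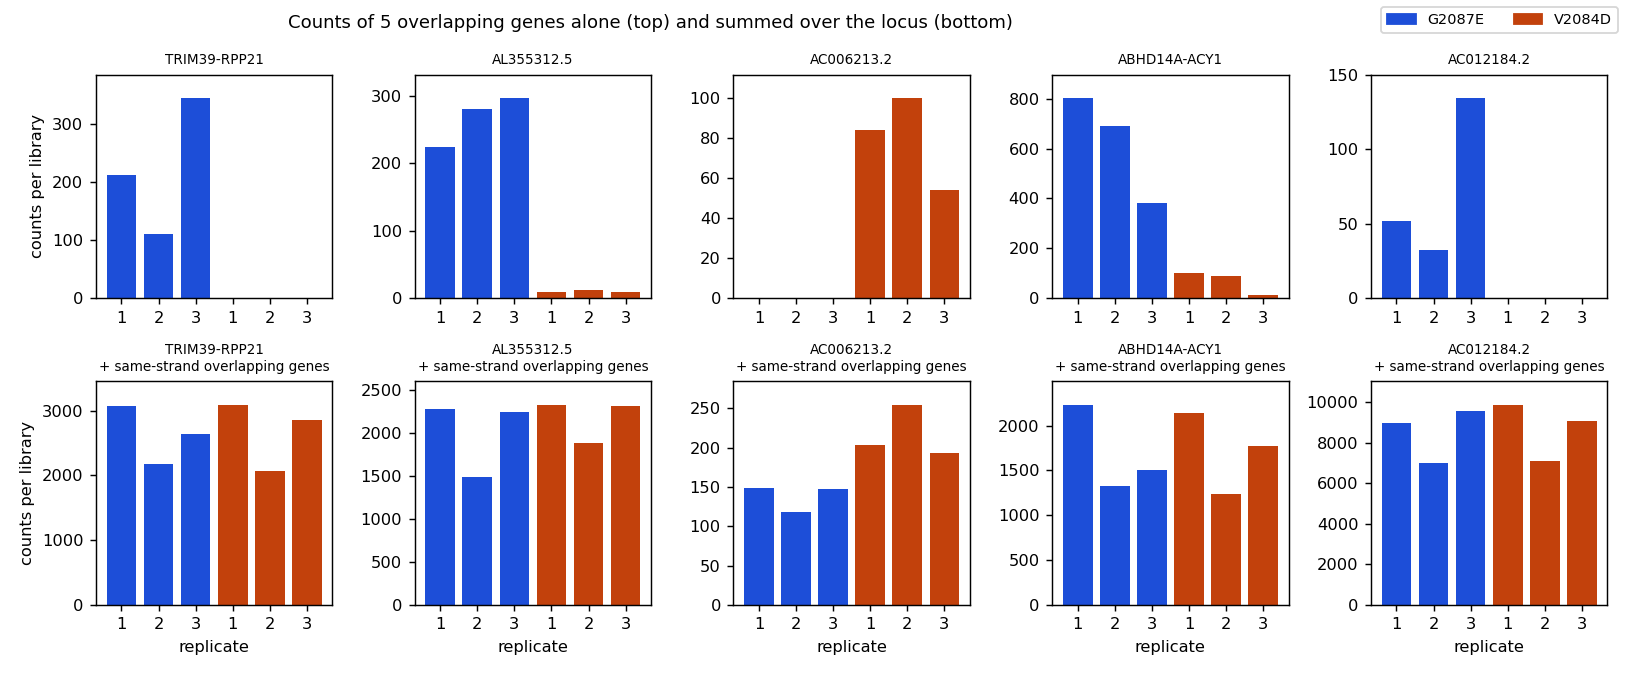
Counts per library (bars, replicates 1 to 3 of G2087E in blue and of V2084D in orange) of the 3 called transcripts, ABHD14A-ACY1 and AC012184.2 alone (top) and summed with the genes they overlap on the same strand (bottom). The mutants separate in each upper panel, while in the lower panels they overlap except at AC006213.2, where V2084D holds 193 to 254 counts and G2087E 118 to 149.

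Protein-coding genes at a mean log2 CPM of at least 1 gave 0 calls by edgeR without a block. The genes of this class with the smallest unadjusted p in each direction were ABHD14A-ACY1 (edgeR adjusted p = 0.707) and ACY1, given with the overlapping transcripts, and those described next, all at an edgeR adjusted p of 1.0. FGD4, an exchange factor for the GTPase CDC42, held 3.56, 3.96 and 4.44 CPM in V2084D and 2.01, 1.90 and 2.42 CPM in G2087E (0.92, SE 0.244). The RNA-binding gene MATR3 held 384, 279 and 183 CPM and 179, 200 and 199 CPM (0.55, SE 0.222), so that its V2084D libraries spread over the G2087E range. A second entry named MATR3 (ENSG00000015479), which the first contains almost whole on the same strand, gave -0.37 (SE 0.310), so the 2 entries pointed in opposite directions and reads may be split between them. PLPP3, a lipid phosphate phosphatase, held 5.80, 5.77 and 5.77 CPM in V2084D and 8.01, 7.94 and 8.26 CPM in G2087E (-0.48, SE 0.188), 2 tight groups that did not overlap. EEF1G, a subunit of the translation elongation factor, held 1319, 1241 and 1024 CPM and 2448, 1953 and 1184 CPM (-0.64, SE 0.218), with overlap. The septin gene SEPTIN5 held 16.9, 6.81 and 16.5 CPM and 29.1, 22.0 and 22.5 CPM (-0.87, SE 0.297), without overlap. EEF1G and SEPTIN5 are each overlapped on their strand by another annotated gene, AP002990.1 (0.88, SE 0.631) and a read-through into GP1BB, so their counts are uncertain in the same way.

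In USP43 the difference rested on a single library. USP43, a ubiquitin-specific protease, held 111 CPM in G2087E replicate 1 and 4.43 to 6.44 CPM in the other 5. Its difference of -2.76 (SE 0.902) was 0.16 without that library and -1.21 (SE 0.674) with the replicate block. NDUFC2-KCTD14, a read-through transcript, held 0.820, 0.676 and 3.78 CPM in V2084D and 7.39, 3.96 and 5.50 CPM in G2087E (-1.67, SE 0.544), and it was called without V2084D replicate 3 (edgeR adjusted p = 0.0402). UPK3BL1, a member of a family of near-identical copies, held 2.90, 0.242 and 3.69 CPM and 10.5, 60.9 and 31.3 CPM (-3.90, SE 0.701). WT libraries ranged from 2.95 to 32.1 CPM for the same gene. TNNI3, a heart troponin, held 2.88, 3.04 and 2.48 CPM in V2084D and 5.38, 3.52 and 4.69 CPM in G2087E (-0.70, SE 0.246), and TCHH, trichohyalin of hair follicles, gave 0.59 (SE 0.264), both without overlap between the groups. The other genes under the naming rule were FBXO16 (0.68), AC005520.1 (0.72), ZNF383 (0.62), AC114490.1 (1.55), RPL17-C18orf32 (0.69) and CDRT4 (0.92), higher in V2084D, and AC138811.2 (-1.34) and AC009779.3 (-0.55), lower.

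Over 28 gene lists, 633 of 680 distinct genes were tested and 0 were called by edgeR, where the background was 0.0144%. An unadjusted p below 0.05 was reached by 2 of the 633, where 0.78% of all genes reached it. The first was the neurofilament gene NEFM, from the list of 293T line and kidney progenitor markers, with only 312 counts over the 6 libraries. It stood at 1.80, 1.79 and 1.26 CPM in V2084D and 0.414, 0.895 and 0.731 CPM in G2087E (1.25, SE 0.389). The other was RMRP, the RNA of RNase MRP, at 0.980, 0.652 and 2.33 CPM and 0.724, 0.488 and 0.102 CPM (1.60, SE 0.658), and its groups overlapped. Its difference was 0.90 without V2084D replicate 3 and 2.20 without G2087E replicate 1. The lists' medians ran from -0.08 to 0.24, beside 0.00 over all genes.

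Among subunits of the BAF complex, 29 of 30 were tested, the median was 0.03, and for all 29 the 95% interval lay within 2-fold. The paralog ARID1B, which takes the place of ARID1A in some complexes, gave 0.04 (SE 0.142), and the ATPase SMARCA4 gave 0.00 (SE 0.162). PBRM1, of the related PBAF complex, gave 0.34 (SE 0.167) and BCL11B 0.45 (SE 0.230), both with overlapping libraries. The HOX genes, common targets of Polycomb and BAF, had a median of 0.00 over 38 members, 19 of them above 0, and HOXB13 gave -0.27 (SE 0.165). Polycomb subunits had a median of -0.01 over 28 members, and the methyltransferase EZH1 gave -0.27 (SE 0.161).

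Genes of protein disposal also gave no call. STUB1 held 265, 177 and 250 CPM in V2084D and 278, 217 and 208 CPM in G2087E, a difference of -0.02 (SE 0.180, 95% interval -0.42 to 0.37). The 23 STUB1 and ubiquitin genes had a median of 0.01, the 31 proteasome subunits -0.02 and the 14 subunits of TRiC, the chaperonin that folds actin and tubulin, 0.00. For all members of these 3 lists the interval lay within 2-fold, and the conjugating enzyme gene UBE2W had the largest difference among those named, 0.31 (SE 0.222). The 25 genes of endoplasmic reticulum folding had a median of 0.02, with all intervals within 2-fold.

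The ATF4 stress response list had a median of -0.04 over 32 genes. ATF4 itself gave -0.03 (SE 0.120). CHAC1, a glutathione-degrading target of ATF4, held 16.4, 9.95 and 18.4 CPM in V2084D and 17, 20.7 and 17 CPM in G2087E (-0.29, SE 0.233), the single low value being V2084D replicate 2. ATF3 gave 0.24 (SE 0.173) and the phosphatase subunit PPP1R15A 0.21 (SE 0.206). Immediate early genes had a median of 0.01 over 28 members. The groups did not overlap for 1 of the 28, near the 3.72% of all genes. It was EGR3, with 11.2 to 12.7 CPM in V2084D and 9.93 to 10.1 CPM in G2087E (0.28, SE 0.175). The 23 p53 targets had a median of -0.04, and TP53INP1 gave 0.34 (SE 0.210).

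Several lists leaned one way by small amounts. Of 27 glycolysis and hypoxia genes, 1 lay above 0 (median -0.08), and the leading members were ENO2 at -0.26 (SE 0.160) and PGK1 at -0.16 (SE 0.153). Of 34 nuclear genes of the respiratory chain, 4 lay above 0 (median -0.05, NDUFA4 at -0.13, SE 0.157), and of 35 cytosolic ribosomal proteins, 6 did (median -0.04, RPL38 at -0.18, SE 0.125). In contrast, 26 of 29 G2/M mitosis genes lay above 0 (median 0.04), among them the kinesin gene CENPE at 0.26 (SE 0.176), while the phosphatase gene CDC25C gave -0.23 (SE 0.165). Over all genes, 10553 of 20888 lay above 0. Members of such lists move together from library to library, so these counts are not independent observations.

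The largest list median, 0.24, was that of the replication-dependent histones, whose messages mostly lack a poly(A) tail. Of 17 members tested, 15 lay above 0 and 2 were higher in V2084D with libraries that did not overlap, where 1.81% of all genes were. They were H2BC21 at 0.39 (SE 0.194) and H2BC4 at 0.61 (SE 0.311). H2BC4 held 2.12, 1.91 and 3.48 CPM in V2084D and 1.86, 1.55 and 1.52 CPM in G2087E, and the highest value was that of V2084D replicate 3, the library with the largest share of ribosomal RNA reads. The nuclear and abundant noncoding RNAs had a median of 0.09 over 14 members, 12 of them above 0. The part of ribosomal RNA content in these 2 lists was not tested.

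The remaining lists were centred near 0. Their medians were 0.01 for 27 genes of G1/S replication, 0.01 for 13 mitochondrial DNA transcripts, 0.00 for 27 genes of cholesterol and fatty acid synthesis, 0.03 for 24 YAP/TEAD genes, -0.04 for 20 NRF2 and metallothionein genes and -0.01 for 23 interferon genes. The interferon list was the least bounded of these, with 13 of 23 intervals within 2-fold. The marker lists gave 0.04 for the 293T line, -0.03 for liver, -0.04 for blood, -0.01 for fibroblasts and -0.07 for squamous and gut epithelium, over 18, 12, 3, 5 and 3 members tested.

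**Figure D5:**
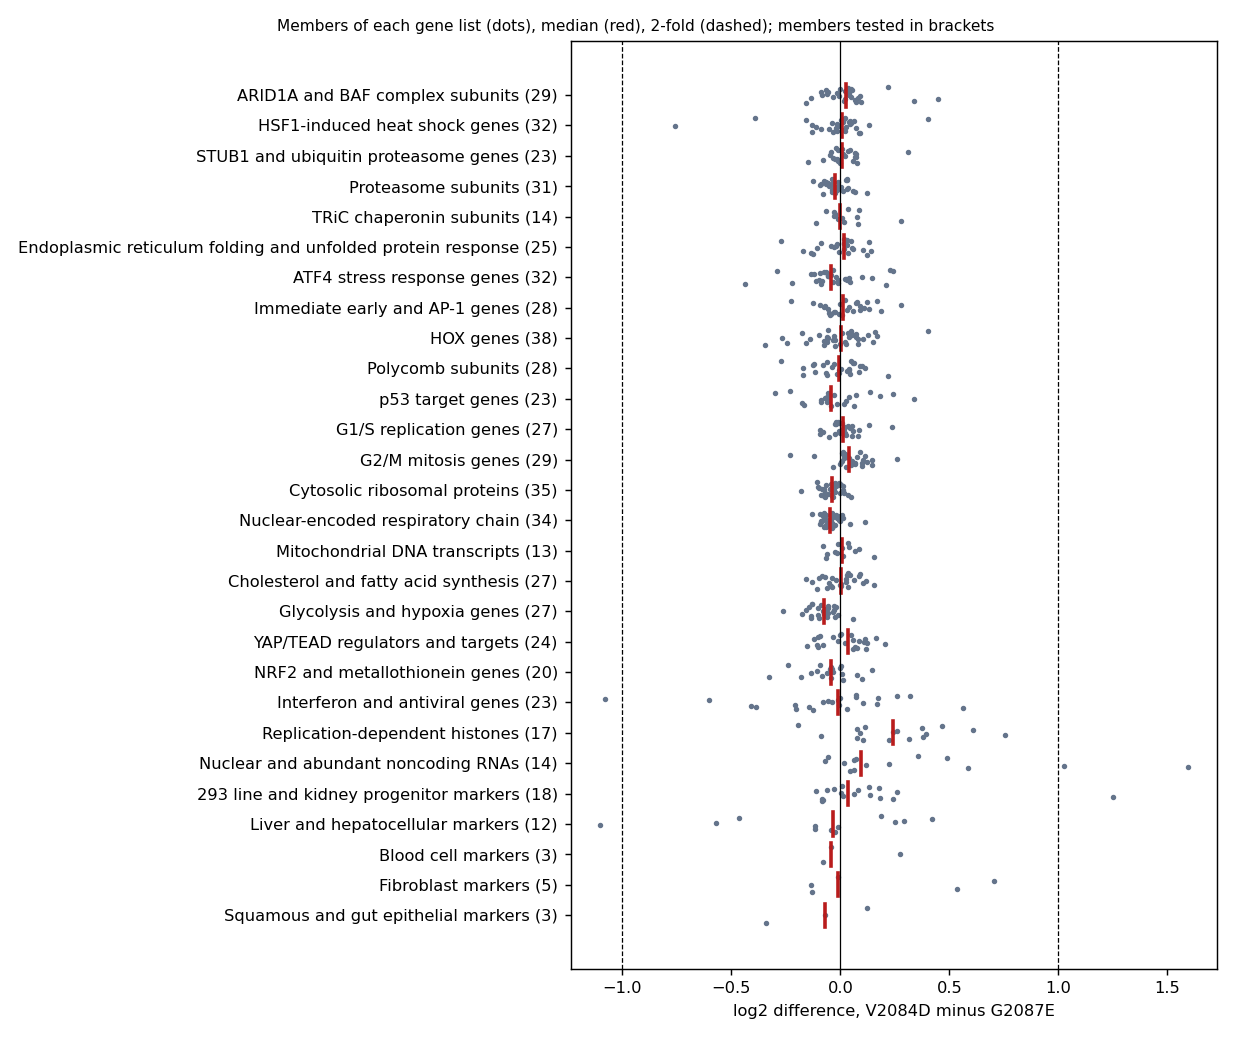
Log2 difference (V2084D minus G2087E) of each tested member of the 28 gene lists (dots), with the median of the list in red and a 2-fold difference dashed. All list medians lie between -0.08 and 0.24, and members beyond 2-fold occur in the interferon, noncoding RNA, 293T line and liver lists.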

How the data were processed

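The authors deposited raw counts per gene, with build GRCh38 and the tool edgeR named per the submitters' processing notes. Per the labels' protocols, libraries were prepared from Trizol- and column-purified total RNA with a NEBNext Ultra II kit. The aligner, counting rule, strand setting and annotation are not given in the sources used here. All columns matched a sample.

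The counts were fitted with edgeR 4.0.16 in R 4.3.3 (quasi-likelihood test, TMM scaling, the 6 libraries only), with Benjamini-Hochberg adjustment over the 20888 genes and calls below 0.05. The SE is the Wald standard error of the log2 difference, and 95% intervals use the t distribution. No SE is given where a group had 0 counts. Positions are from GENCODE 29, matched by gene identifier. The filter and test were tried on simulated data. The members, gene lists and rules were chosen with earlier results of these data known. The rule names ARID1A, STUB1 and a fixed set of stress genes, the 10 protein-coding genes per direction of mean log2 CPM at least 1 with the smallest p, and up to 4 members per list.

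Replicate numbers are shared by the groups, though no label says what they mark. Deviations from the group means correlated at 0.169, 0.152 and 0.171 for libraries of equal number and at -0.176 to 0.0146 for the others. Each group was centred on its own mean, which pulls the other values down when those of equal number are positive. On that evidence alone the numbers were taken as pairs in a second fit, the replicate block. The pairing was chosen from the same counts, so p-values and intervals with the block are a description. Values are from the fit without the block unless it is named. The block narrowed some intervals, as for ARID1A (SE 0.090 against 0.327) and DNAJB1 (SE 0.110 against 0.261). With it, the intervals of LRP11 (0.02 to 0.58), PBRM1 (0.03 to 0.64) and ENO2 (-0.53 to -0.004) came to hold a single sign. So did those of HSPA6, H2BC21 (0.02 to 0.76) and CDRT4 (0.04 to 1.49). Those of USP43 and RMRP came to hold both signs. None of these genes was called with the block. Alternatives were other scalings, DESeq2 1.42.0, limma 3.58.1 (voom), other filters, fits with more groups and each library left out. Leaving out both replicate 3 libraries, and summing overlapping genes, were added after seeing the data. Depth of 36432321 to 51527529 counts per library gave the coarsest precision to weakly expressed genes.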

Additional observations from a re-analysis of the deposited data

How the results depend on the processing

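The count of 3 called genes rose to 6 with DESeq2 (sharing all 3) and to 4 without both replicate 3 libraries, and ran from 2 to 7 with each library left out (7 without G2087E replicate 1, 6 without G2087E replicate 2, 5 without V2084D replicate 3). It was 0 with all 18 libraries labelled 293T in 1 edgeR fit (143 genes at an unadjusted p below 0.05), 0 with KO and WT added (156) and 0 with overlapping genes summed (158); the fits with more groups share their estimate of the spread with the added libraries. The replicate block also gave 3 calls, 2 of them shared. It changed no call other than those of AC006213.2 and ABHD14A-ACY1 among the genes named. The share of genes with an interval within 2-fold was 41.8% with no filter, 90.2% with a filter of 1 CPM, 72.2% with the replicate block, 68.3% with all 18 libraries, 63.8% without both replicate 3 libraries and 64.3% to 66.9% with each library left out. The ARID1A difference was 0.14 with the block, -0.34 to 0.55 with each library left out and -0.00921 without both replicate 3 libraries. Of 60 further genes named, 15 changed sign under some setting. Without both replicate 3 libraries these were ARID1B (-0.034), HSPA1A (-0.19), HSPA1B (-0.15), HSP90AA1 (0.22), ATF4 (0.00161) and RPP21 (-0.14). Under voom they were HSPA1A (-0.052) and HSPA1B (-0.036), under the block HSPA1A (-0.049), HSPA1B (-0.032) and HSP90AA1 (0.0030), and under the 1 CPM filter SMARCA4 (0.00239). With each library left out the ranges were -0.052 to 0.12 for ARID1B, -0.10 to 0.12 for SMARCA4, -0.13 to 0.14 for STUB1, -0.41 to 0.31 for HSPA1A, -0.38 to 0.29 for HSPA1B, -0.38 to 0.17 for DNAJB1, -0.10 to 0.21 for HSPA8, -0.11 to 0.18 for HSP90AA1, -0.25 to 0.21 for BAG3, -0.30 to 0.18 for HSF1, -0.090 to 0.025 for ATF4, -3.29 to 0.16 for USP43, -0.021 to 0.14 for TRIM39, -0.049 to 0.33 for RPP21 and -0.21 to 0.11 for ZNF404. The cause was not tested. Depth limits the comparison at low levels, where a 2-fold difference lay inside most intervals.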
